A study of Mus musculus with 12 samples.

Results

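The genes described here are the mRNAs of the IL-6 and IL-12 cytokine families in mouse bone marrow-derived macrophages (BMDMs). Their 9 symbols were taken by name from the deposited expression table: Il6, Osm, Lif, Il11 and Csf3 on the IL-6 side, and Il12a, Il12b, Il23a and Il27 on the IL-12 side. All 9 were listed among 38739 symbols. RNA was sequenced from 12 samples, 3 in each of 4 conditions: WT macrophages left untreated (WT UT) or given LPS (WT LPS), and cGAS-/- macrophages in the same conditions (cGAS-/- UT and cGAS-/- LPS). LPS is the endotoxin of Gram-negative bacteria, and cGAS is the cytosolic DNA sensor that makes the messenger 2′3′-cGAMP. All cells came from mice on a C57BL/6J background, per the study's methods, and were cultured in the same medium with serum. The knockout was carried by the whole mouse and not by macrophages alone, so the cells lacked cGAS throughout their growth from marrow. The labels give E. coli LPS at 100 ng/mL, or medium alone, for 1 h, whereas the study's methods give a higher dose for 24 h. Which of these applies to the sequenced cells was not settled, and the time after LPS is therefore unknown for every value below. The labels also call the cells macrophages in one place and the source of the RNA neutrophils in another, and 2 different sequencer models are named, which was not settled either. Per the study's text the triplicates are technical, and p-values then measure the spread between these samples, which may be technical.

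Cytokines of the IL-6 family signal through receptors that share the chain gp130, which activates Janus kinases and STAT3. Those of the IL-12 family are pairs of subunits: Il12a with Il12b makes IL-12, Il23a with Il12b makes IL-23, and Il27 with Ebi3 makes IL-27. Macrophages and dendritic cells secrete them after microbial products engage Toll-like receptors, and they steer fever, the acute-phase response, neutrophil production and the differentiation of T cells. Ebi3 and the gp130 gene Il6st are not analysed here.

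Values are in TPM (transcripts per 1000000), taken as an average over the transcripts listed for a symbol, and an exact 0 is described as listed at 0, since it may be a failed estimate. Cgas, the targeted gene, ranged from 0.0703 to 0.291 TPM over the 6 cGAS-/- samples and from 1.19 to 3.25 TPM over the 6 WT samples. WT LPS replicate 3 stood apart from the other 11 samples. The TPM of this library summed to 709802, against 447189 to 503156 in the others, and 18.5% of its total lay on protein-coding genes. Of 1734 genes at 10 TPM or more in each of the other 11 samples, 15 were listed at 0 in it, and 7 of the 9 cytokines were as well. Values without this library are given for the members tested and for the list genes named in comparisons with WT LPS, except where only a count is given or the text says otherwise. Macrophage markers (9 of 11 listed) summed to between 16938 and 34239 TPM over the 12 samples, highest in cGAS-/- LPS at 33775 to 34239. B cell markers (6 of 7 listed) summed to 108 to 134 TPM in WT UT, 30.6 to 44.9 in WT LPS, 19.9 to 28.5 in cGAS-/- UT and 3.04 to 8.84 in cGAS-/- LPS. Neutrophil markers (7 of 9 listed) summed to 139 to 213, 35.5 to 353, 52.9 to 126 and 46.4 to 59.9 TPM in the same order, with Elane listed at 0 in cGAS-/- UT. Dendritic cell markers (8 of 8 listed) were at 0.404 to 2.46 TPM, T and NK cell markers (8 of 8) at 0.962 TPM or less with Cd3e, Ncr1 and Nkg7 listed at 0 outside WT UT and Klrb1c in cGAS-/- LPS, and stromal markers (6 of 6) at 2.07 to 16.7 TPM. The part of these other cells in the cytokine values was not tested, and in such bulk samples fewer cells of a type and less RNA per cell cannot be told apart.

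Il6 encodes the fever and acute-phase cytokine IL-6 and lies on chromosome 5 of GRCm39 (30218112 to 30224979, plus strand). In WT UT cells it was at 0.134, 0.0458 and 0.104 TPM in replicates 1, 2 and 3, and in WT LPS cells at 1.07, 0.772 and 0.559 TPM. In cGAS-/- UT cells it was at 0, 0.101 and 0.0682 TPM, and in cGAS-/- LPS cells at 14.8, 12.5 and 15.5 TPM. All 3 WT LPS samples were above all WT UT samples, and all 3 cGAS-/- LPS samples were above every other sample, while the UT samples of both genotypes overlapped. With LPS the mean was 14.3 ± 1.58 TPM (SD, n = 3) in cGAS-/- and 0.801 ± 0.256 TPM in WT cells, a ratio of 17.8, or 15.5 without WT LPS replicate 3. Il6 rose with LPS in both genotypes. The difference in log2(TPM + 1) was 0.71 in WT (standard error 0.16, limma adjusted p = 0.00989), or 0.81 when WT LPS replicate 3 was left out, and 3.85 in cGAS-/- cells (standard error 0.16, limma adjusted p = 1.87e-07). The rise in WT cells lost its call with a pseudocount of 5 (limma adjusted p = 0.0929) and when only the 6 samples compared were fitted (0.0681). Between the genotypes with LPS the difference was 3.09 on that scale (95% confidence interval 2.73 to 3.45, limma adjusted p = 4.24e-06), and 2.99 without that library. It was past the threshold under 23 of 24 alternative settings, and at an adjusted p of 0.0539 when only the 6 LPS samples were fitted. To be tested, a gene needed at least 1 TPM in 3 or more samples after rescaling to a common total. Il6 met this through the 3 cGAS-/- LPS samples and 2 WT LPS samples, so it entered through samples where it was high. The fitted values above describe the gene and support nothing.

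Sequences upstream of Il6, Il12a and Il12b are shown, the genes with an entry whose cGAS-/- LPS samples were above all others, because the transcription regulators described after the cytokines bind such stretches. Of the 9 genes, 5 were matched in RefSeq's promoter table (GRCm38.p6), and Il23a, Il27, Osm and Csf3 were not. Each 250-base window was placed on GRCm39 by its exact and single match, and 7 motifs were searched on both strands of it. The Il6 window, chr5:30217862-30218111 on the plus strand, ends at the base before the start site and overlaps no annotated exon of the gene. Capitals mark every motif match.
Il6: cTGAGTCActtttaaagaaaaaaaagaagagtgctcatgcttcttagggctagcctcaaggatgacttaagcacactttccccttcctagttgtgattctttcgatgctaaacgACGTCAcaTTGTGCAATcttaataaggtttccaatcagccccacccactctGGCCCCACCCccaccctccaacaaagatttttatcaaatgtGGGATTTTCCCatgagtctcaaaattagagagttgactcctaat
Counted back from the start site, an AP-1 motif (TGANTCA) lay 249 to 243 bases upstream, a CRE half-site (TGACGT, minus strand) at 136 to 131 and a C/EBP motif (TTNNGCAAT) at 128 to 120. The NF-kB motif (GGG, any 5 bases, then CC) matched at 85 to 76 on the minus strand, and at 44 to 35 and 43 to 34 on the plus and minus strand, which overlap each other. Of 32851 such windows of mouse genes, 45.8% held the NF-kB motif, 6.75% the AP-1 motif, 6.47% the CRE half-site and 1.93% the C/EBP motif. The windows of Lif and Il11, matched but not shown, held AP-1 and NF-kB motifs as well, and both genes stayed low in every sample. A match of these letters is a description of the sequence and not a measurement of binding, and the part of the motifs in the levels was not tested.

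Csf3 encodes G-CSF, the cytokine that drives neutrophil production, which resembles IL-6 in its fold and uses its own receptor. It lies on chromosome 11 (98592089 to 98594458, plus strand). Csf3 was listed at 0 in all 3 WT UT samples and was at 3.19, 2.12 and 0 TPM in WT LPS replicates 1, 2 and 3. It was at 0, 0.150 and 0 TPM in cGAS-/- UT and at 8.04, 5.40 and 5.48 TPM in cGAS-/- LPS cells. The cGAS-/- LPS samples were above all others, and in WT cells the LPS samples overlapped the UT samples only through the library that stood apart. Csf3 rose with LPS by 2.78 in cGAS-/- cells (standard error 0.41, limma adjusted p = 9.50e-04) and by 1.24 in WT cells (standard error 0.41, limma adjusted p = 0.0466). The call in WT cells was lost under 17 of 24 alternatives, with adjusted p up to 0.186, whereas it was 6.26e-05 without WT LPS replicate 3. Between genotypes with LPS the difference was 1.61 (95% confidence interval 0.70 to 2.53, limma adjusted p = 0.0812), not past the threshold. Without WT LPS replicate 3 it was 1.00 (limma adjusted p = 0.0110), with a ratio of means of 2.37, in a fit that called 3.84% of genes higher. Leaving out WT LPS replicate 1 or 2 in place of replicate 3 also took it past the threshold, at 2.03 (0.0257) and 1.82 (0.0205), and so did a pseudocount of 5, at 0.76 (0.0237). Csf3 entered the test through the 3 cGAS-/- LPS samples and 2 WT LPS samples alone, so its fitted values describe the gene and support nothing.

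Osm encodes oncostatin M, a gp130 cytokine of macrophages and T cells that acts on stroma and liver, and Lif encodes leukemia inhibitory factor, known for keeping stem cells undifferentiated. They are neighbours on chromosome 11 of GRCm39, Osm at 4186420 to 4191026 and Lif at 4207557 to 4222514, both on the plus strand. Osm was at 1.44, 2.48 and 3.01 TPM in WT UT and 1.77, 1.37 and 0 TPM in WT LPS cells. In cGAS-/- cells it was at 3.17, 2.32 and 1.96 TPM untreated and at 1.57, 1.87 and 1.05 TPM with LPS. The cGAS-/- LPS samples were below all cGAS-/- UT samples, while the genotypes overlapped in each treatment, as did the WT samples with and without LPS. The LPS difference was −0.48 in cGAS-/- (limma adjusted p = 0.469) and −0.79 in WT cells (limma adjusted p = 0.116), or −0.34 in WT when WT LPS replicate 3 was left out, none of them past the threshold. In WT cells it passed with values rescaled to a common protein-coding total (−0.93, limma adjusted p = 0.0397), and in cGAS-/- cells with weights per sample (−0.50, limma adjusted p = 0.0408). Between genotypes with LPS it was 0.40 (95% confidence interval −0.38 to 1.18), and −0.054 without that library.

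Lif stayed low in every sample. It was at 0.0677, 0.146 and 0.285 TPM in WT UT, 0.0717, 0.152 and 0 in WT LPS, 0, 0.0337 and 0.0229 in cGAS-/- UT and 0.0841, 0.0690 and 0.0657 in cGAS-/- LPS cells. The cGAS-/- UT samples were below both the WT UT and the cGAS-/- LPS samples, without overlap. Il11, a gp130 cytokine of fibrosis and platelet formation on chromosome 7 (4775372 to 4785858, minus strand), was listed at 0 in all WT LPS samples and was at most 0.126 TPM elsewhere. Neither gene reached the filter on low values, and in a fit of all 23590 genes above 0 neither was called in any comparison. That fit called 0.42% of genes higher between the genotypes with LPS and 2.03% higher with LPS in cGAS-/- cells.

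Il12a encodes the subunit p35, which IL-12 shares with IL-35, and lies on chromosome 3 (68597977 to 68605880, plus strand). It was at 0.0921, 0 and 0 TPM in WT UT and 0.293, 0.244 and 0 TPM in WT LPS cells. In cGAS-/- cells it was at 0, 0 and 0.0700 TPM untreated and at 4.32, 3.70 and 2.72 TPM with LPS. The cGAS-/- LPS samples stood above all 9 others, which overlapped one another. Il12a passed the filter on low values through the 3 cGAS-/- LPS samples alone, so it had to differ there, and the fitted values that follow describe the gene and support nothing. Il12a rose with LPS by 2.15 on the log2 scale in cGAS-/- cells (standard error 0.17, limma adjusted p = 1.08e-05), and the difference in WT cells was 0.19 (95% confidence interval −0.19 to 0.56, limma adjusted p = 0.418), or 0.30 when WT LPS replicate 3 was left out. Between genotypes with LPS it differed by 1.95 (95% confidence interval 1.58 to 2.32, limma adjusted p = 1.90e-04), and 1.84 without that library. Taken over the WT LPS replicates 1 and 2 alone, the ratio of means was 13.3. The call was made under 23 of 24 alternatives and lost when only the 6 LPS samples were fitted (limma adjusted p = 0.121). The first upstream window of Il12a, chr3:68597727-68597976 on the plus strand, overlaps no annotated exon of the gene and is shown because it held none of the 7 motifs searched. A second window, chr3:68598507-68598756, which overlaps an exon of the transcript Il12a-202, held the NF-kB motif on both strands, at 113 to 104 and 112 to 103 bases upstream of the RefSeq start, and these matches overlap each other.
Il12a: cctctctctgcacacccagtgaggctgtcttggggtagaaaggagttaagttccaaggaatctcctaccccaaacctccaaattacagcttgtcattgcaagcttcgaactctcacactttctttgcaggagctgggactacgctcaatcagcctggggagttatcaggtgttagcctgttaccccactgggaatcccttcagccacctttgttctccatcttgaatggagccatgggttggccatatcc
The motifs searched were those named for Il6, a PU.1 core (GAGGAA), an ISRE (GAAA, any 2 bases, then GAAA, found in 2.98% of windows) and a TATA motif (TATANAA), and no match says only that these letters are not in this window.

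Il12b encodes p40, the subunit that IL-12 and IL-23 have in common, and lies on chromosome 11 (44290808 to 44305505, plus strand). It was at 0.567, 0.515 and 0.213 TPM in cGAS-/- LPS replicates 1, 2 and 3 and listed at 0 in the other 9 samples. No fold is given for it, because every group it could be set against was at 0. It was too low for the filter, and no test of it is given, since it could enter a fit only through the 3 samples in which it was above 0. Within each cGAS-/- LPS sample Il12b was below Il12a. The upstream window of Il12b reaches past the annotated start of the gene, and its 168 bases before the first exon, chr11:44290640-44290807 on the plus strand, are shown for their matches of the PU.1 core, the motif of a macrophage lineage factor, in capitals.
Il12b: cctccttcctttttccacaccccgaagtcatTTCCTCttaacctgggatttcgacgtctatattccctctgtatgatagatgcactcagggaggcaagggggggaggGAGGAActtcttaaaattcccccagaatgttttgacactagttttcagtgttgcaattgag
Counted from the RefSeq start, the PU.1 cores lay 219 to 214 bases upstream on the minus strand and 143 to 138 on the plus strand, and a TATA motif lay at 30 to 24, beyond the stretch shown. The PU.1 core was found in 23.3% and the TATA motif in 10.4% of all windows.

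Il23a encodes p19, the subunit particular to IL-23, and lies on chromosome 10 (128132008 to 128134621, minus strand). It was at 0.510, 1.09 and 1.21 TPM in WT UT, 0.680, 0.725 and 0.985 in WT LPS, 0.598, 0.797 and 0.478 in cGAS-/- UT and 0.983, 0.665 and 1.11 in cGAS-/- LPS cells. The 4 conditions overlapped one another. It was not called in any comparison. Between genotypes with LPS the difference was 0.09 (95% confidence interval −0.32 to 0.50, limma adjusted p = 0.791), or 0.17 when WT LPS replicate 3 was left out, and it turned to −0.20 with median-of-ratios scaling, −0.13 with quantile normalization and −0.038 with a common protein-coding total.

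Il27 encodes p28, the subunit that with Ebi3 makes IL-27, a cytokine that restrains as well as promotes T cell responses, and lies on chromosome 7 (126188181 to 126194209, minus strand). It was at 1.03, 1.91 and 1.03 TPM in WT UT and at 15.1, 17.1 and 0 TPM in WT LPS cells. In cGAS-/- cells it was at 2.91, 0.442 and 2.10 TPM untreated and at 15.1, 14.8 and 11.9 TPM with LPS. With LPS, WT replicates 1 and 2 and all 3 cGAS-/- samples were above every UT sample, and the only exception was WT LPS replicate 3, where Il27 was listed at 0. The LPS difference was 1.53 in WT (limma adjusted p = 0.206) and 2.52 in cGAS-/- cells (limma adjusted p = 0.0899). Without WT LPS replicate 3 Il27 rose in both, by 2.90 in WT (limma adjusted p = 2.39e-04) and 2.52 in cGAS-/- cells (limma adjusted p = 2.42e-04), in a fit that called 8.26% and 9.19% of genes higher. Without this library the difference between genotypes with LPS was −0.20 (limma adjusted p = 0.791), and over all samples it was 1.16 (95% confidence interval −0.78 to 3.11, limma adjusted p = 0.472).

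**Figure D1:**
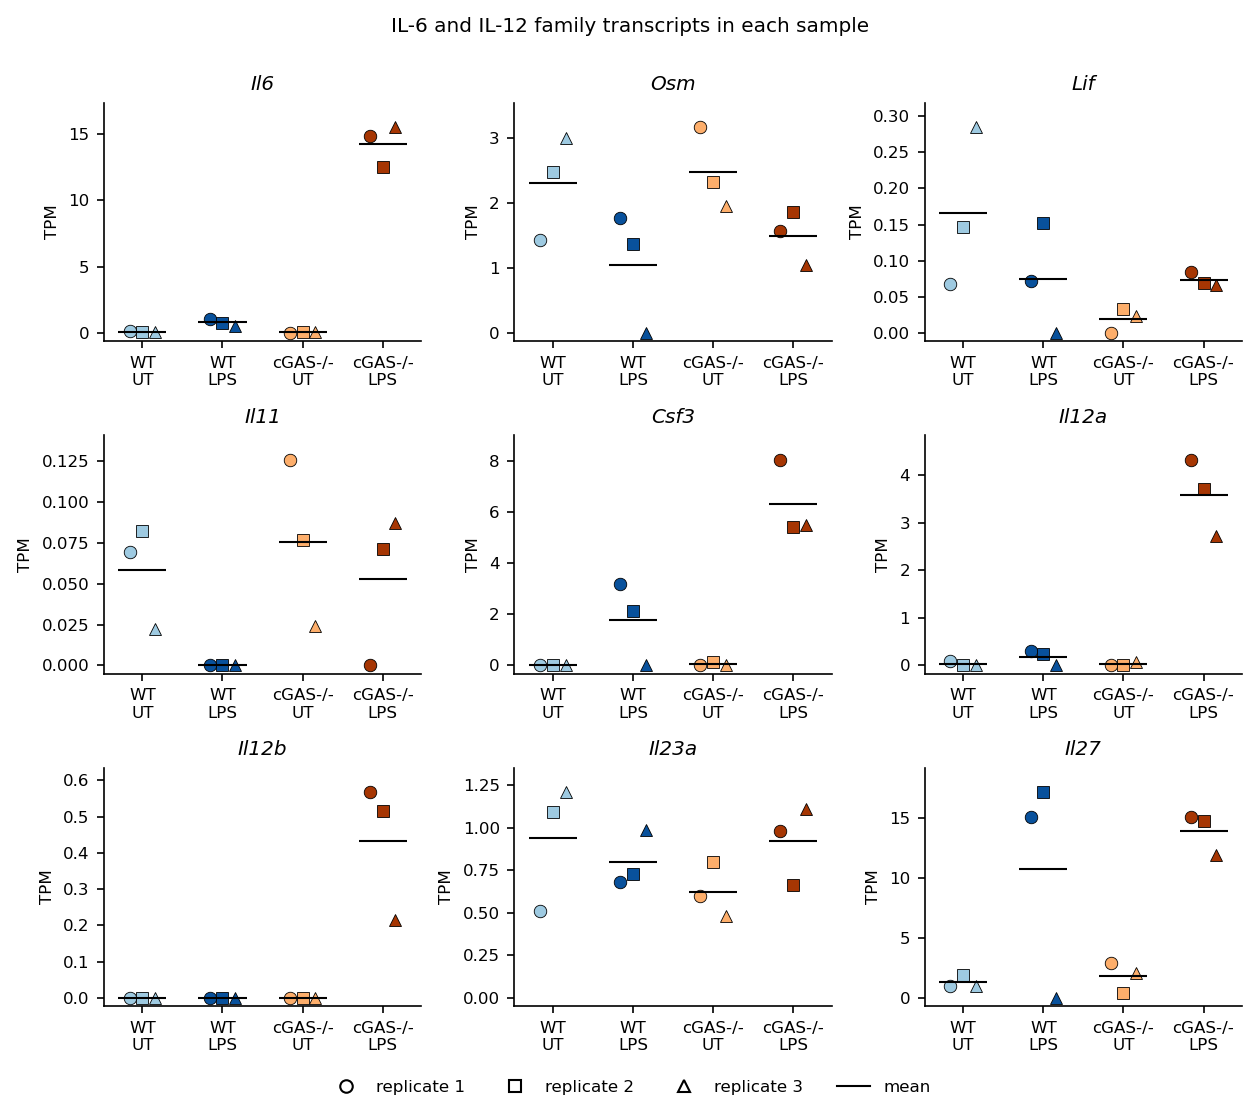
Level of each cytokine mRNA in TPM (y axis, linear, own scale per panel) in the 4 conditions (x axis); points are single samples with the symbol giving the replicate number, and lines are means of 3. Il6, Il12a, Il12b and Csf3 are highest in the 3 cGAS-/- LPS samples, and WT LPS replicate 3 (triangle) is at 0 for 7 of the 9 genes.

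The order of the levels also differed between the LPS groups. In cGAS-/- LPS cells the means were 14.3 TPM for Il6, 13.9 for Il27, 6.31 for Csf3, 3.58 for Il12a, 0.920 for Il23a, 0.432 for Il12b and 0.0729 for Lif, with Osm between 1.05 and 1.87 TPM, above Il23a in its mean, and Il11 between 0 and 0.0872. Il6 and Il27 overlapped, as did Osm and Il23a, and Lif and Il11, while the other neighbours in this order did not. In WT LPS replicates 1 and 2 the order was Il27, Csf3, Osm, Il6, Il23a and Il12a, so that Il6 stood below Osm there and above it in cGAS-/- LPS cells. These are TPM, which are per length, but the average over listed transcripts divides a gene with many short models further, so the order carries that factor.

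Counted over the family, 2 of the 6 tested members were called higher in cGAS-/- than WT cells with LPS, Il6 and Il12a, where 2.36% of the 11887 genes tested were called in either direction and 1.36% higher. Il6 also passed a log2 difference of 2, as 0.278% of genes did. In UT cells limma called 0 of 6, with 0 at an unadjusted p under 0.05, where 1.83% of genes were called. With LPS in WT cells Il6 and Csf3 were called, where 27.6% of genes were called and 4.31% called higher. In cGAS-/- cells Il6, Csf3 and Il12a were called and passed a log2 difference of 2, where 13.8% of genes were called, 4.76% called higher and 1.94% passed that size as well. Il12a entered the test through the cGAS-/- LPS samples alone, and Il6 and Csf3 through the 3 cGAS-/- LPS samples and 2 WT LPS samples, too few without the former. These counts therefore describe the members and support nothing. By the samples themselves, 4 of the 9 genes (Il6, Il12a, Il12b and Csf3) had all cGAS-/- LPS samples above all WT LPS samples, as 12.6% of tested genes did. With LPS against UT, 6 of 9 were higher without overlap in cGAS-/- cells (15.5% of tested genes) and 1, Osm, was lower (40.2%). In WT cells Il6 was higher (5.31%) and Il11 lower (32.9%), and between the UT genotypes Lif was lower in cGAS-/- (18.4%). Il12b, Lif and Il11 are counted here although they did not pass the filter, while the shares are over genes that did. The median log2 difference of all tested genes was 0.20 between the genotypes with LPS, −0.46 for LPS in WT and −0.20 for LPS in cGAS-/- cells. With median-of-ratios scaling these medians were −0.02 in all 3 comparisons, and Il6 and Il12a were still called between the genotypes. Without WT LPS replicate 3 the median between the genotypes with LPS was 0.04. The medians of the lists below are over all samples only.

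**Figure D2:**
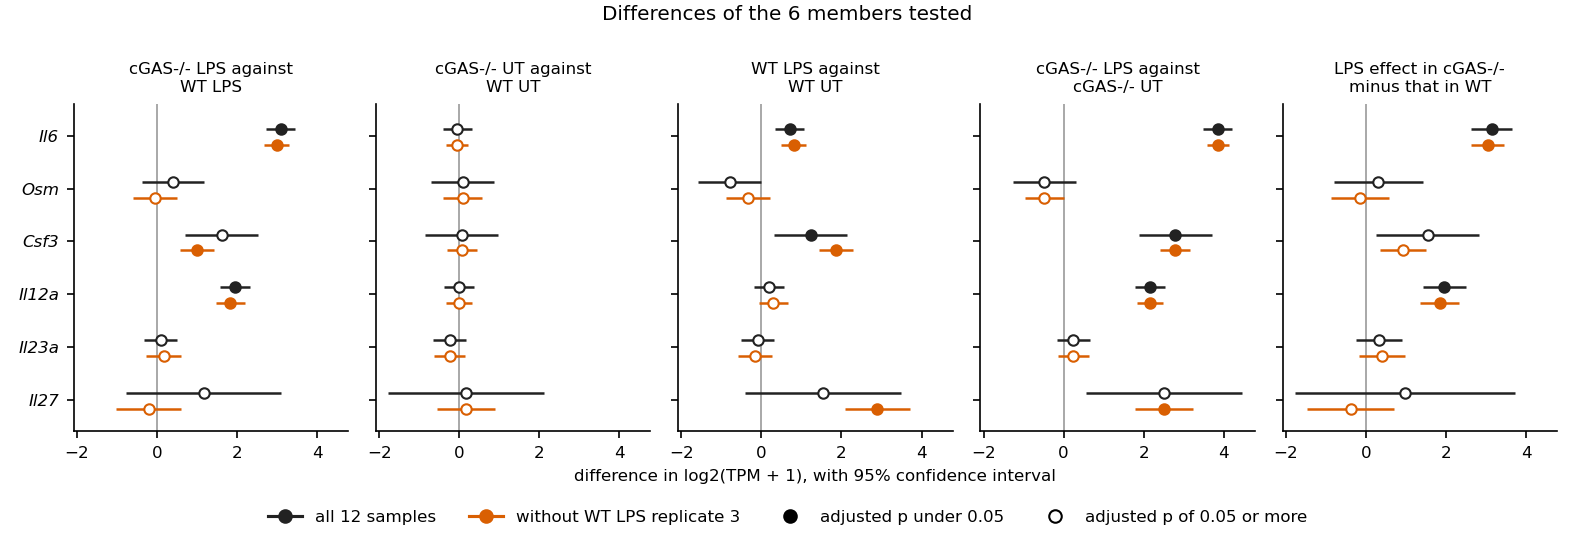
Difference in log2(TPM + 1) (x axis) with 95% confidence interval for the 6 tested cytokines (y axis) in 5 comparisons, from all 12 samples (black) and without WT LPS replicate 3 (orange); filled points have a limma adjusted p under 0.05. Il6 and Il12a are filled in both fits between genotypes with LPS, and Il27 after LPS is filled only without that library.

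The difference in LPS effect between the genotypes was fitted as limma's interaction term, which was past an adjusted p of 0.05 for 0.9% of all genes, and in the direction of a larger effect in cGAS-/- cells for 0.732%, or 0.311% with a log2 difference beyond 2. It was called for Il6 and Il12a, at 3.14 and 1.96. Il12a passed the filter on low values through the 3 cGAS-/- LPS samples alone. Il6 and Csf3 passed it through those and 2 WT LPS samples, too few without the cGAS-/- LPS samples. The terms of these genes describe them and support nothing. For Csf3 the term was 1.55 (95% confidence interval 0.26 to 2.84, limma adjusted p = 0.349), which became 0.93 when WT LPS replicate 3 was left out (limma adjusted p = 0.0760). For Il27 it was 0.98 (95% confidence interval −1.77 to 3.74), and −0.38 without that library. For Osm and Il23a it was 0.31 and 0.33, with limma adjusted p of 0.802 and 0.657, and −0.14 and 0.41 without that library.

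**Figure D3:**
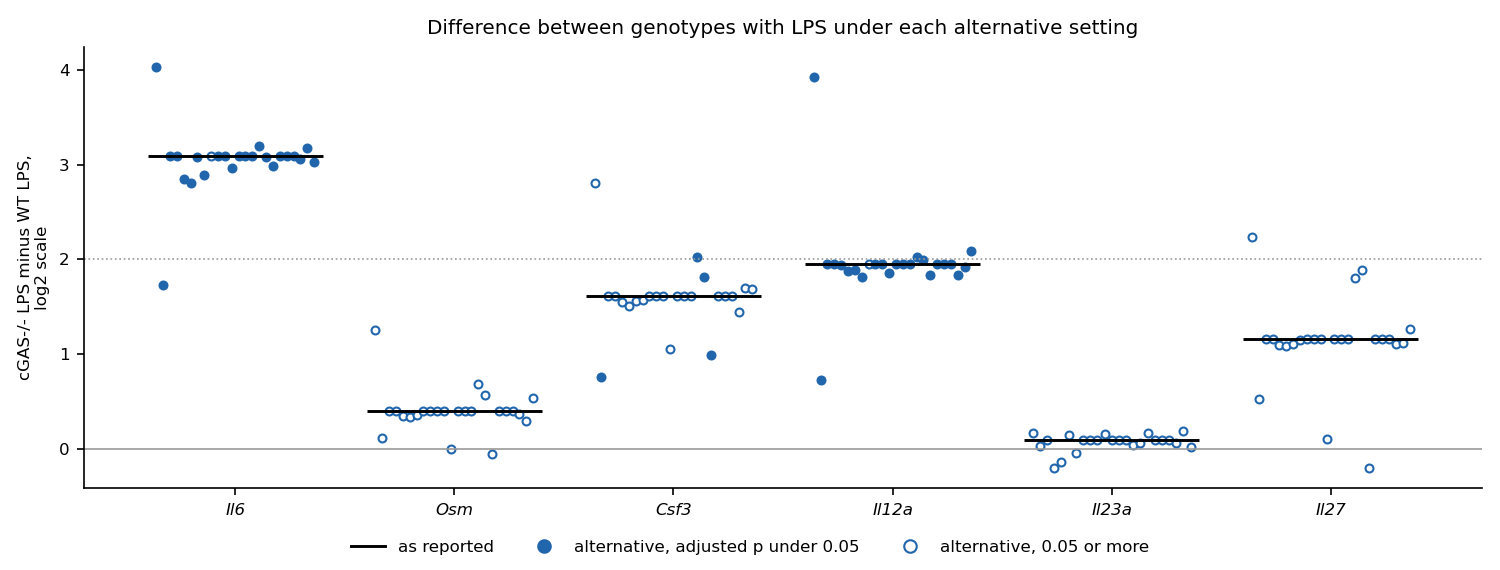
Difference between cGAS-/- LPS and WT LPS on the log2 scale (y axis) for the 6 tested cytokines (x axis) under each alternative setting (points, filled where the adjusted p was under 0.05) and as given in the text (black line); the dotted line marks 2. Il6 lies between 1.73 and 4.03 and Il12a between 0.72 and 3.92, with 23 of 24 points filled in each, whereas Il27 and Osm fall to −0.20 and −0.054 at their lowest.

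Among the receptors of these cytokines, 6 of 11 were tested, and 0 were called between the genotypes with LPS (limma, median difference 0.10 against 0.20 over all genes), where 2.36% of all genes were called. Il23r, the chain particular to the IL-23 receptor, rose with LPS in both genotypes, by 2.84 in WT (limma adjusted p = 1.48e-04) and 3.05 in cGAS-/- cells (limma adjusted p = 9.45e-05). It went from at most 0.0926 TPM in UT cells to between 3.23 and 12.4 TPM in WT LPS and between 6.51 and 8.45 TPM in cGAS-/- LPS cells. Il23r thus entered the test through LPS samples alone, so its fitted rise describes the gene and supports nothing. Il12rb2, the signalling chain of the IL-12 receptor, fell in both, by 1.09 in WT (limma adjusted p = 6.64e-04) and by 0.95 in cGAS-/- cells (limma adjusted p = 0.00201). Il27ra, which binds IL-27, was lower in cGAS-/- UT than WT UT cells, at 0.370 ± 0.140 against 1.65 ± 0.502 TPM (SD, n = 3, log2 difference −0.94, limma adjusted p = 0.0175), and fell with LPS in WT cells by 1.26 (limma adjusted p = 4.29e-04). In WT cells LPS also raised Csf3r, the G-CSF receptor, by 1.42 (limma adjusted p = 0.00229), and Il11ra1, the IL-11 receptor, fell by 1.85 (limma adjusted p = 0.00155), or by 1.44 when WT LPS replicate 3 was left out. Without that library the WT differences of Il23r, Il12rb2, Il27ra and Csf3r were 3.26, −1.02, −1.20 and 1.49 on the log2 scale. Il12rb2 and Il27ra entered the test through UT samples alone, so their fitted differences are descriptions as well. B cell markers were lower where Il27ra was lower between the UT genotypes, and they were also at lower sums with LPS in both genotypes, where Il12rb2 fell, and in WT cells Il27ra and Il11ra1 as well. Their part in these differences was not tested.

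Of the 18 Janus kinases, STATs and feedback genes, 14 were tested, with a median of 0.34 between genotypes with LPS, against 0.20 over all genes. Stat4, the factor that IL-12 activates in lymphocytes, was the only gene of this list called there, at 0.97 higher in cGAS-/- cells (limma adjusted p = 0.0286), where 1.36% of all genes were called higher. It was at 1.18 to 1.59 TPM in cGAS-/- LPS and at 0 to 0.495 TPM in WT LPS cells. In WT cells Stat4 fell with LPS, by 1.03 (limma adjusted p = 0.00337), and so did Pias3, an inhibitor of STAT3, by 1.05 (limma adjusted p = 0.00634). When WT LPS replicate 3 was left out, Stat4 was at 0.93 between the genotypes with LPS and at −0.99 with LPS in WT cells, and Pias3 at −0.82. Socs3, the feedback inhibitor of gp130 signalling, rose in both genotypes, by 4.77 in WT (limma adjusted p = 7.18e-06) and 6.08 in cGAS-/- cells (limma adjusted p = 1.34e-06). Without that library its rise in WT cells was 5.23. It reached 29.3 to 91.9 TPM in WT LPS and 101 to 106 TPM in cGAS-/- LPS cells, and was between 0.257 and 1.26 TPM untreated.

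Of 22 transcription regulators of these cytokine genes, 16 were tested and 0 were called between genotypes in either treatment (limma), where 2.36% of all genes were called with LPS and 1.83% in UT cells. Their median with LPS was 0.66 against 0.20 over all genes, and the latter became 0.04 when WT LPS replicate 3 was left out. The median of the list without that library is not given. With LPS in cGAS-/- cells 5 rose and 1 fell, where 13.8% of all genes were called. Batf, an AP-1 factor, rose by 3.44 (limma adjusted p = 3.62e-04), Nfil3 by 1.90 (limma adjusted p = 2.70e-04) and Cebpb, the C/EBP factor long known as NF-IL6, by 1.78 (limma adjusted p = 0.00662), while Cebpa fell by 3.06 (limma adjusted p = 0.00352). Cebpb rose in WT cells too, by 1.76 (limma adjusted p = 0.0053), and its value without WT LPS replicate 3 is not given. In WT cells 4 rose and 4 fell, where 27.6% of all genes were called, with Cebpa at −3.75 (limma adjusted p = 7.89e-04), Nfil3 at 2.01 (limma adjusted p = 1.77e-04), Fos at −1.92 (limma adjusted p = 0.0120) and Batf at 1.83 (limma adjusted p = 0.0128). When WT LPS replicate 3 was left out, Nfil3 was at 1.99, Fos at −1.26 (limma adjusted p = 9.68e-04), Batf at 2.51 (limma adjusted p = 4.74e-07) and Cebpa at −2.89 (limma adjusted p = 5.47e-07). Of 12 genes listed as regulators of mRNA stability, 10 were tested and 0 were called between the genotypes (limma), a count that at 2.36% and 1.83% of all genes is near the background. The list also holds Tnip1, which encodes the A20-binding NF-kB inhibitor ABIN-1 and is not an mRNA stability factor. In cGAS-/- cells LPS raised Zc3h12a, the RNase Regnase-1 that degrades Il6 mRNA, by 2.32 (limma adjusted p = 0.00220). Tnip1 rose by 2.13 (limma adjusted p = 0.00315) and Zc3h12c by 1.66 (limma adjusted p = 0.0301). In WT cells the differences of Zc3h12a, Tnip1 and Zc3h12c were 0.79, 0.74 and 0.77 (limma adjusted p = 0.146, 0.159 and 0.208). The interaction term was not called for any of them, and their WT values without WT LPS replicate 3 are not given. Zfp36l1 fell by 2.08 in cGAS-/- (limma adjusted p = 1.59e-04) and by 1.64 in WT cells (limma adjusted p = 7.36e-04), or by 1.52 in WT cells when WT LPS replicate 3 was left out.

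Other LPS-inducible cytokines and chemokines, 21 of 27 tested, went both ways between the genotypes with LPS, with 5 higher and 4 lower in cGAS-/- cells, where 2.36% of all genes were called in either direction, and a median of −0.33. The neutrophil-attracting chemokines Cxcl3, Cxcl1 and Cxcl2 were higher, by 3.17, 2.99 and 2.76 (limma adjusted p = 0.0126, 0.0181 and 0.0458), as was Il1b by 3.11 (limma adjusted p = 0.00907). When WT LPS replicate 3 was left out, these differences were 2.44, 2.23 and 1.95 (limma adjusted p = 0.00174, 0.00204 and 0.0206) and, for Il1b, 2.57 (limma adjusted p = 0.00410). The fifth gene called higher was Il1a, at 1.99, and those called lower were Il1rn, Cxcl11, Cxcl10 and Ifnb1, at −2.15, −2.08, −1.43 and −1.21 on the log2 scale. These 5 were named after their values were seen, and their values without WT LPS replicate 3 are not given. With LPS against UT, 17 of the 21 rose in WT and 14 in cGAS-/- cells, and 0 fell (limma), where 4.31% and 4.76% of all genes were called higher. Ifnb1, Cxcl9 and Cxcl11, at most 0.301 TPM in UT cells, are in both counts. They entered the test through LPS samples alone, so their rise describes them and supports nothing. In UT cells 1 was called, Ccl2, the monocyte chemokine, which was lower in cGAS-/- cells by 3.02 on the log2 scale, where 1.83% of all genes were called.

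**Figure D4:**
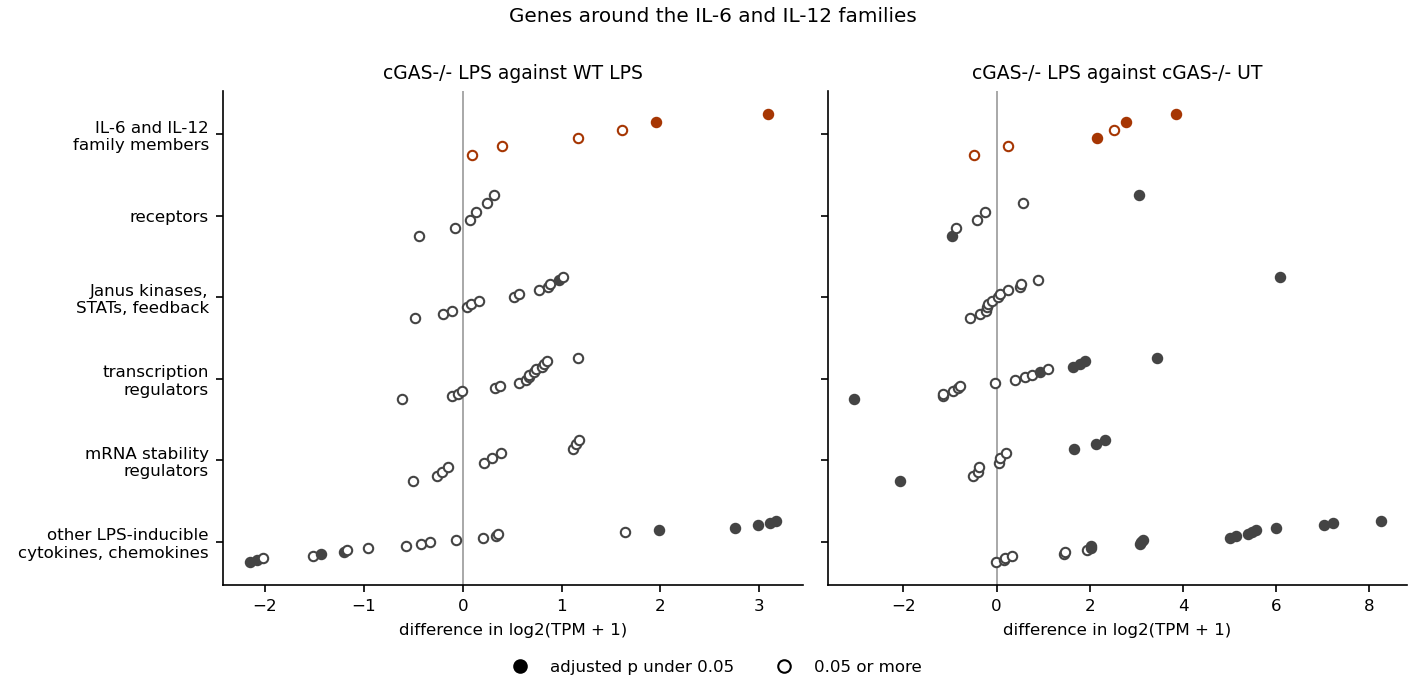
Difference in log2(TPM + 1) (x axis) of tested genes of the families and of 5 lists around them (y axis), between genotypes with LPS (left) and for LPS in cGAS-/- cells (right); each point is a gene, filled where the limma adjusted p was under 0.05. On the left Stat4 is the only filled point among receptors, Janus kinases, STATs and feedback genes, transcription regulators and mRNA stability regulators.

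The genes of most similar profile were taken by the mean absolute difference of log2(TPM + 1) over the 12 samples after each gene's own mean was subtracted. Nearest to Il6 were Smpdl3b (0.263), Vnn3 (0.412) and Cd300e (0.418). Smpdl3b, a lipid-modulating phosphodiesterase of macrophages, averaged 3.44 TPM in WT UT, 9.54 in WT LPS, 3.04 in cGAS-/- UT and 64.9 in cGAS-/- LPS cells. Nearest to Il12a were Lad1 (0.0847), Shisa3 (0.133) and Ppm1n (0.154), and nearest to Csf3 were Lmo4 (0.207), Slc16a3 (0.227) and Wnt6 (0.247). For Il27 they were Cd69 (0.445), Upp1 (0.450) and Slc31a1 (0.469). For Osm they were Zfp277, Fdxr and Dnaaf2 at 0.136 to 0.146, and for Il23a Gm29325, Gm48069 and B230216N24Rik at 0.113 to 0.121, a likeness between genes that moved little.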

How the data were processed

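RNA of 12 BMDM samples was sequenced as paired-end reads from stranded mRNA libraries. Per the labels and the study's methods, the authors used fastp for trimming, STAR for mapping to GRCm39 and kallisto for quantification (versions not given in the sources used here). The deposited values were read as TPM, each a mean over the listed transcripts of a symbol, which was inferred from the values. Counting error could not be given, as the read depth is unknown. The authors' own comparisons were not used.

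Genes with at least 1 TPM, with each sample rescaled to a total of 1000000 for the filter alone, in 3 or more of the 12 samples were tested (11887 genes, 6 of the 9 members). Limma 3.58.1 in R 4.3.3 was fitted to log2(TPM + 1) with 1 mean per condition over all 12 samples and a variance trend, and p-values were Benjamini-Hochberg adjusted over all genes tested. The scale understates the change of low genes. The threshold was an adjusted p of 0.05, and for "both thresholds" also a log2 difference beyond 2. Intervals are 95% and unadjusted. The fit was tested on simulated data.

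Named were the 9 members, Cgas, every called receptor and JAK-STAT gene, up to 4 called genes of each other list by size of change and the 3 genes nearest in profile to each tested member. Results of 2 list genes are not reported here. The members and lists were chosen with earlier results of these data known. The fit was repeated with pseudocounts of 0.1 and 5, with a filter of 5 TPM or none, median-of-ratios, quantile and total scaling, only the samples compared, a replicate block, no variance trend, sample weights and each sample left out. Scaling to a common protein-coding total was chosen after seeing the data.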

Additional observations from a re-analysis of the deposited data

Results flagged for a closer look

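For 2 genes the effect of LPS differed between cGAS-/- and WT macrophages by the interaction term fitted across all genes with limma. For Il6 the LPS effect was larger in cGAS-/- cells by 3.14 on the log2(TPM + 1) scale (95% confidence interval 2.63 to 3.65, limma adjusted p = 2.88e-04), and it ranked first of 11887 genes by p. It was called under all 23 alternatives that could be fitted, at 1.74 to 4.38, and was 3.04 without WT LPS replicate 3. For Il12a it was larger by 1.96 (95% confidence interval 1.43 to 2.49, limma adjusted p = 0.00330), and 1.85 without that replicate. The Il12a term was called under 22 of 23 alternatives and was lost with a pseudocount of 0.1 (limma adjusted p = 0.135). Il12a was listed at 0 in 5 of the 9 samples outside cGAS-/- LPS, so the size of its difference is set in part by the pseudocount. Il12a entered the test through the cGAS-/- LPS samples alone, and Il6 through the 3 cGAS-/- LPS samples and 2 WT LPS samples, too few without the former. These terms therefore describe the 2 genes and support nothing.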

How the results depend on the processing

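Of 238 counts of called members 206 stayed within 1.5 times their main value, and of 709 differences of single members 656 kept their direction and their side of the threshold. Between genotypes with LPS the tested members past the adjusted p numbered 2. With Csf3 added they numbered 3 with a pseudocount of 5 and without any 1 of the WT LPS replicates, and they numbered 0 when only the samples compared were fitted. Those past both thresholds numbered 1, and 2 with a pseudocount of 0.1, 0 with a pseudocount of 5, 0 with only the samples compared and 1 to 3 with 1 replicate left out (3 without WT LPS replicate 1 and 2 without cGAS-/- LPS replicate 3). For LPS in WT cells the 2 members became 1 with a pseudocount of 0.1, no filter, median-of-ratios scaling or no variance trend, 0 with a pseudocount of 5 or only the samples compared, and 1 to 3 with 1 replicate left out. Both thresholds, passed by 0, were passed by 1 member with a pseudocount of 0.1 (Il6) and by 1 without WT LPS replicate 3 (Il27). For LPS in cGAS-/- cells the 3 members became 5 with sample weights, and the 3 past both thresholds became 0 with a pseudocount of 5. For the interaction 2 members became 1 with a pseudocount of 0.1, and 1 past both thresholds became 0 with a pseudocount of 5 and 1 to 2 with 1 replicate left out (2 without WT LPS replicate 1 or 2 or cGAS-/- LPS replicate 3). The cause was not tested for any of these.

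Directions turned only for differences that were not called. Between genotypes with LPS, Il23a turned to −0.20 (median-of-ratios), −0.13 (quantile) and −0.038 (protein-coding total). With 1 replicate left out Il27 lay between −0.20 and 1.89 and Osm between −0.054 and 0.68, below 0 without WT LPS replicate 3. In UT cells Il6 turned to 0.037 and Il12a to 0.032 with quantile normalization. With 1 replicate left out Il12a lay between −0.042 and 0.033 (above 0 without WT UT replicate 1 or cGAS-/- UT replicate 1 or 2), Il27 between −0.12 and 0.60 (below 0 without cGAS-/- UT replicate 1) and Osm between −0.12 and 0.24 (below 0 without replicate 1 of either). For LPS in WT cells Il23a turned to 0.34 (median-of-ratios), 0.43 (quantile), and lay between −0.26 and 0.011 with 1 replicate left out (above 0 without WT UT replicate 3). In the interaction Il23a turned to −0.0077 (quantile), and Osm to −0.081 (sample weights). With 1 replicate left out Osm lay between −0.14 and 0.59 and Il27 between −0.38 and 1.71, below 0 without WT LPS replicate 3.

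The correlations of 18 same-number pairs of samples lay between −0.0315 and 0.0383, so no shared deviation was seen. They cannot settle whether same-number samples were prepared together. With the replicate block the members called numbered 2 between genotypes with LPS, 0 in UT cells, 2 and 3 for LPS in WT and cGAS-/- cells and 2 for the interaction, as without it. The unknown depth limits what a value under about 0.1 TPM can show, and Il12b, Lif and Il11 lie near there in most samples.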
